A study of Mus musculus with 24 samples.

Results

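The genes described are the protein-coding subunits of the mitochondrial respiratory chain and ATP synthase in inguinal white adipose tissue of young mice. Members were every listed gene on the mitochondrial chromosome, and every nuclear gene whose symbol begins with Ndufa, Ndufb, Ndufc, Ndufs, Ndufv, Uqcr, Cox4 to Cox8 or Atp5, or is Sdha, Sdhb, Sdhc or Sdhd. Assembly factors (Ndufaf) and the muscle or brown fat isoforms Cox6a2, Cox7a1 and Cox8b were left out by that choice. It gave 95 of 16118 genes: 13 coded by mitochondrial DNA (mtDNA) and 82 coded in the nucleus. The rule itself used no measured value, but it was set with earlier results of these data known. All 95 passed the filter on low counts.

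The respiratory chain passes electrons from NADH (complex I) and succinate (complex II) through complex III to oxygen at complex IV, and complex V (ATP synthase) uses the resulting proton gradient to make ATP. Complexes I, III, IV and V are assembled from products of both genomes, while complex II is coded in the nucleus only. In adipose tissue the chain is densest in brown and beige fat cells, where uncoupling protein 1 (Ucp1) releases the gradient as heat. Mitochondrial genes are transcribed as long RNAs from both strands and cut at the tRNAs between them. Of the mtDNA-coded members, 7 belong to complex I, 1 to complex III, 3 to complex IV and 2 to complex V. Of the nuclear members, 37 belong to complex I, 4 to complex II, 8 to complex III, 13 to complex IV (with Ndufa4, a complex IV subunit despite its name) and 17 to complex V. The other 3 match by name but are not subunits counted here: Cox5b-ps, a pseudogene by name; Ndufa4l2, a relative of Ndufa4 known from hypoxia; and Cox7a2l, an assembly factor of supercomplexes.

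Subcutaneous inguinal fat was taken from 24 mice, and the polyadenylated RNA of each mouse was sequenced as 1 library. Males and females were taken at postnatal day 21 (p21) or at day 28. Those of day 28 had been separated from the mother at day 21 (standard weaning, SW) or had stayed with her (delayed weaning, DW). Each of the 6 groups (p21, SW and DW males, and p21, SW and DW females) had 4 animals, named below by their animal numbers. The strain is not given in the sources used here, and no animal carried a named allele or agent. The titles of the p21 libraries carry another age, so group and animal number were read from the description and the age label. Whether litters were shared is not given, so p-values measure the spread between these animals.

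Recovered reads per library ranged from 57600711 (p21 male 53) to 302145813 (SW male 85). The fat markers were present in every library: the adipocyte hormone Adipoq had scaled values of 787.4 to 1527. GC content was taken from 1 annotated transcript per gene, as a rule its longest. For each library, the deviation of each gene from its mean over 24 animals was correlated with this GC content. Pearson's r (over 13062 genes of 1 library, given as a description) differed between libraries. It was lowest in DW female 83 (-0.610), p21 male 37 (-0.483) and DW female 82 (-0.416), and highest in SW female 81 (0.440), DW female 76 (0.386) and p21 female 36 (0.358). The other libraries lay between -0.192 and 0.299. Skeletal muscle RNA was also present to varying degrees. The summed value of 18 muscle markers was 47.5 to 774.9 in p21 males, 655.3 to 9318 in SW males and 469.1 to 9471 in DW males. In females it was 48.9 to 2104 at p21, 566.3 to 4494 after SW and 56.1 to 3064 after DW. Of the 18, Myh2 and Myh4 were each listed at 0 in 1 animal.

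The 13 mtDNA-coded genes lie close together and in part overlap, which bears on what each value can mean. mt-Atp8 and mt-Atp6, both subunits of the membrane part of complex V, share 43 bases at chrM:7927-7969 on the same strand. The overlap is shown because a read inside it belongs to both genes. Capitals mark the start codon of mt-Atp6 (mitochondrial sequence of the GENCODE M21 transcripts, forward strand):
mt-Atp8 to mt-Atp6: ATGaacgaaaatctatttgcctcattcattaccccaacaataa
mt-Nd4l and mt-Nd4 of complex I share 7 bases, and mt-Nd5 and mt-Nd6 share 14 bases on opposite strands. The strand setting of the counting is not given in the sources used here, so RNA of the strand opposite mt-Nd6 cannot be told apart from mt-Nd6 itself.

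Several mtDNA-coded genes also have near-identical annotated copies in the nuclear genome. Each transcript was cut into all its 100-base windows, and each window was looked for word for word in the transcripts of other GENCODE M21 genes. The share found was 99.9% for mt-Co3, 99.5% for mt-Co2 and mt-Atp6, 98.5% for mt-Nd4l and 97.6% for mt-Nd3. It was 60.8% for mt-Nd4, 30.8% for mt-Co1 and 3.19% for mt-Nd2. No window of mt-Nd1, mt-Nd5, mt-Nd6, mt-Cytb or mt-Atp8 was found; the search covers annotated transcripts only. For the 7 genes from mt-Co3 to mt-Co1 in that list, the copy with the most windows is an unprocessed pseudogene on chromosome 1, such as Gm10222 for mt-Nd4l. Reads that fit both places may have been dropped or split by the counting, so the values of the copied genes are uncertain.

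The level per length followed the same division only in part, as a description. mt-Co1 and mt-Nd4, with part of their windows elsewhere, were not low. Per kb of exon, the mean scaled value over 24 animals was 46426 for mt-Co1, the catalytic subunit of complex IV, 40459 for mt-Cytb of complex III and 31750 for mt-Nd1. mt-Nd2 stood at 17002, mt-Nd4 at 8145, mt-Nd5 at 7844 and mt-Nd6 at 3313. The 5 genes with over 97% of windows elsewhere stood lower, from 211.4 (mt-Nd3) to 2168 (mt-Co2). mt-Atp8, without an annotated copy of its own but between copied neighbours, was lowest at 147.6. As background, mt-Atp8 and mt-Atp6 are carried on 1 mRNA, as are mt-Nd4l and mt-Nd4, yet per kb mt-Atp6 stood at 1352 against 147.6, and mt-Nd4 at 8145 against 1792 for mt-Nd4l. Nuclear members ranged from 1.57 (Ndufb2) to 619.6 (Cox6b1) per kb, with a median of 58.8. Exon length here joins all annotated transcripts of a gene, which lowers the value of genes with long minor transcripts.

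**Figure D1:**
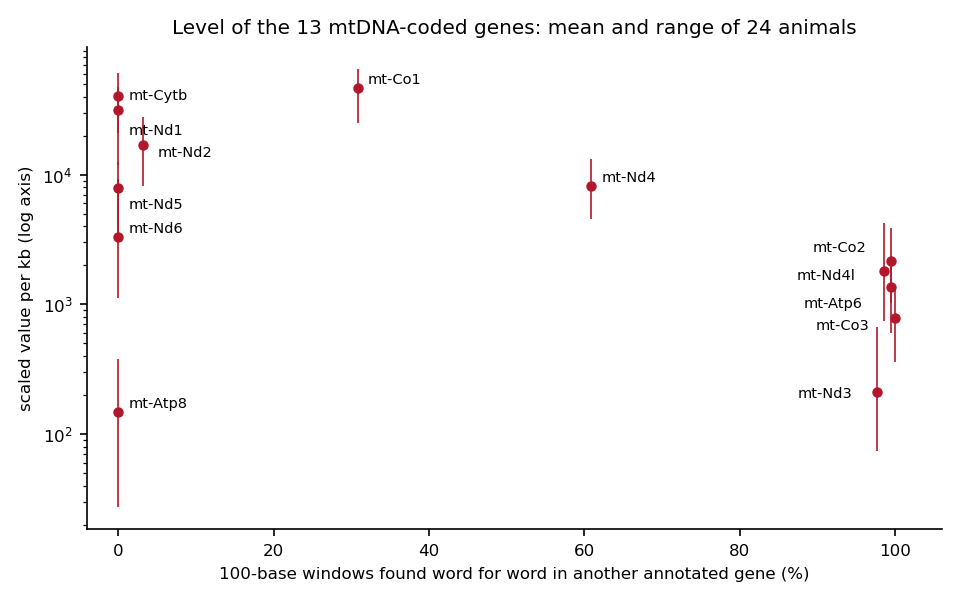
Scaled value per kb (log axis) of the 13 mtDNA-coded genes against the percentage of their 100-base windows found word for word in another annotated gene; points are means and lines the range over 24 animals. The 5 genes at over 97% lie between 211.4 and 2168, and mt-Atp8 lies below them.

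Promoter sequence was available for 67 of the 82 nuclear members (RefSeq, GRCm38.p6), and the 250 bases before each start were searched on both strands for motifs of factors known to act on respiratory genes. GCGCATGCG, the core of the NRF1 motif, was in 6 of 67 members (8.96%). Of all 27025 genes with promoter sequence, whether expressed in this fat or not, 1.64% had it. CCGGAAG, which GABP binds, was in 12 members (17.9% against 7.83% of all). AAGGTCA, to which ERRa binds, was in 5 (7.46% against 4.7%), and AAGATGGCG of YY1 in 1, Atp5j (1.49% against 0.71%). Matches of different motifs were counted independently of each other and could overlap. The windows of 4 of the 6 NRF1 matches are shown with the matched letters in capitals, Cox6a1 first because it recurs below. Each is given 5′ to 3′ along its gene: Cox6a1 at chr5:115349072-115349160 (minus strand), Ndufa11 at chr17:56717662-56717750 (plus), Atp5k at chr5:108434401-108434489 (minus) and Atp5g2 at chr15:102671048-102671129 (minus).
Cox6a1: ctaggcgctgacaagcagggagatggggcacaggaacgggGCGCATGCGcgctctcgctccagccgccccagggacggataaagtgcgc
Ndufa11: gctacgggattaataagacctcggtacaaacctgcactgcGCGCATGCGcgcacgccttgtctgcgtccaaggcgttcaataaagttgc
Atp5k: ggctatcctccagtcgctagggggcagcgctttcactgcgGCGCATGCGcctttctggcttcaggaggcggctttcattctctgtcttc
Atp5g2: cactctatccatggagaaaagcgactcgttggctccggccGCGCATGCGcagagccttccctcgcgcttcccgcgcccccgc
Counted from the annotated start, the match lies at position -162 in Cox6a1, -60 in Ndufa11, -50 in Atp5k and -42 in Atp5g2. The other two genes with a match are Ndufa8 and Atp5l; these genes are named for the match, not for their values. Of the 6, limma called Cox6a1 in comparisons described below and the others in none. Ndufa8 was called lower in DW against p21 males by edgeR (adjusted p = 0.0458) and DESeq2 (0.0266), and Atp5k higher in DW females than DW males by DESeq2 (0.0222).

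The mtDNA-coded genes took 13.2% to 25.5% of all recovered reads, and the 82 nuclear members 1.14% to 1.99%. In males the mtDNA share was 16.6, 13.2, 19.8 and 20.9% in p21 animals 37, 38, 53 and 54. It was 23.7, 25.4, 25.5 and 23.9% in SW males 78, 84, 85 and 124, and 17.7, 18.3, 20.1 and 23.3% in DW males 79, 80, 86 and 87. All 4 SW males lay above every p21 and every DW male, while p21 and DW males overlapped. In females the share was 21.2, 21.2, 20.8 and 16.6% at p21 (30, 36, 55 and 56), and 20.9, 24.2, 20.3 and 25.1% after SW (73, 74, 75 and 81). DW females 76, 77, 82 and 83 had 23.6, 19.2, 13.2 and 13.7%, and the 3 female groups overlapped. Group means of the mtDNA share were 17.6% ± 3.47 (SD, n = 4), 24.6% ± 0.957 and 19.9% ± 2.52 in p21, SW and DW males, and 20.0% ± 2.24, 22.6% ± 2.38 and 17.4% ± 4.93 in the corresponding females.

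The nuclear share moved otherwise. It was 1.72% ± 0.251 in p21 males, 1.44% ± 0.0823 in SW males and 1.28% ± 0.123 in DW males (SD, n = 4), and 1.61% ± 0.122, 1.45% ± 0.0316 and 1.58% ± 0.263 in p21, SW and DW females. The ratio of mtDNA-coded to nuclear reads was 7.84 to 12.0 in p21 males, 15.5 to 17.9 in SW males and 12.7 to 20.5 in DW males, so every day 28 male lay above every p21 male. In females it was 11.3 to 13.5 at p21, 13.7 to 17.8 after SW and 6.78 to 16.3 after DW. The lowest ratios of day 28 were those of DW females 82 and 83 (6.78 and 8.74). In bulk tissue, fewer cells of a type and less RNA per cell cannot be told apart.

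**Figure D2:**
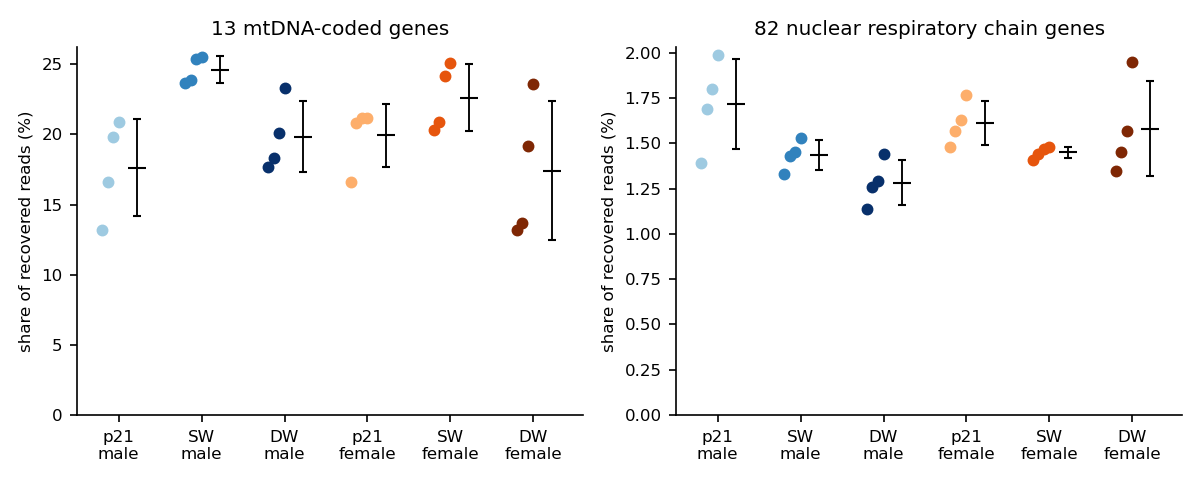
Share of recovered reads (%) from the 13 mtDNA-coded genes (left) and the 82 nuclear respiratory chain genes (right) in each of 24 animals; points are animals, bars the mean and SD of 4. The 4 SW males lie at 23.7 to 25.5% on the left, above all p21 and DW males.

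Differences are given below as log2(value + 1), where value is the read number divided by a factor of its library; the added 1 shrinks the change of genes with low values. All 16005 genes that passed the filter were tested in 1 limma fit over 24 animals. A gene is called at a Benjamini-Hochberg adjusted p under 0.05 over all of them.

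Delayed against standard weaning is the comparison that the study's title names, as prolonged breastfeeding. In males nearly all members were lower after DW, but none passed the test. All 13 mtDNA-coded and 80 of 82 nuclear members were below 0, with medians of -0.36 and -0.33, whereas 48.9% of all genes were below 0 and their median was 0.00. limma called 0 of 95 members (0.256% of all genes were called), and edgeR and DESeq2 also called 0. At an unadjusted p under 0.05 there were 2 mtDNA-coded and 14 nuclear members, 16.8% of members against 6.94% of all genes. The 2 groups of males did not overlap, with DW below SW, in 5 of 13 mtDNA-coded and 11 of 82 nuclear members; this held for 3.40% of all genes.

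Scaled values of mt-Co2, a core subunit of complex IV, were 2331, 2627, 2002 and 1499 in SW males (animals in the order above) and 960.2, 1115, 1265 and 1334 in DW males, a difference of -0.84 (SE 0.291, limma adjusted p = 0.426). Each DW male lay below each SW male. Values of mt-Nd1 were 39411, 45475, 41563 and 35295 in SW males and 22840, 24529, 27832 and 29712 in DW males (-0.63, SE 0.468, limma adjusted p = 0.907). Cox8a, the general isoform of a small complex IV subunit, had means of 241.1 ± 29.7 in SW and 157.9 ± 31.1 in DW males (SD, n = 4), without overlap (-0.62, SE 0.234, limma adjusted p = 0.52). By complex, nuclear medians were -0.34 (I), -0.25 (II), -0.43 (III), -0.35 (IV) and -0.31 (V). Within the animals numbered 73 to 80 (2 DW, 1 SW male) the medians were -0.48 for mtDNA-coded and -0.35 for nuclear members, and within those numbered 81 to 87 (2 and 2) -0.35 and -0.41. Of the muscle markers limma called 0 of 18 (median -0.31), and of 10 brown and beige fat markers 1, lower (median -0.43). With the muscle score as a covariate the medians were -0.346 and -0.338. Gene deviations, correlated above with GC content, were also correlated with exon length in each library. This r was 0.0571 to 0.321 in DW males and -0.152 to 0.068 in SW males. The part of length in the result was not tested.

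In females the same comparison had a wider spread and less of a common direction. Of the mtDNA-coded members 11 of 13 were lower after DW (median -0.50), and of the nuclear members 49 of 82 (median -0.11), against 54.6% of all genes and a median of -0.02. limma called 0 of 95 members (1.27% of all genes), edgeR 0 and DESeq2 1, the complex I subunit Ndufb1. At an unadjusted p under 0.05 there were 1 mtDNA-coded and 14 nuclear members, 15.8% of members against 18.9% of all genes. In no member did the groups separate with DW below SW (3.52% of all genes). Without DW female 76, limma called 12 nuclear and 1 mtDNA-coded member, and without DW female 77 it called 2 nuclear members. With DW females 82 and 83 both left out, it called 0, and the mtDNA median was -0.193. For these fits with animals left out, the share of all genes called is not given. Within the females numbered 73 to 80 (2 DW, 3 SW) the medians were -0.06 for mtDNA-coded and -0.08 for nuclear members, and within those numbered 81 to 87 (2 and 1) -1.20 and -0.16. The 18 muscle markers had a median of -2.93 here with 0 called, and with the muscle score as a covariate the mtDNA median was -0.344. Mammary epithelium markers were lower too, with a summed value of 114.5 to 244.1 in DW against 275.7 to 389.5 in SW females, without overlap (median of 10 markers -1.04, 1 called lower). The part of these markers in the result was not tested beyond the muscle covariate.

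The sex difference in the weaning effect was tested as an interaction. limma, edgeR and DESeq2 called 0 members, and 0.0187% of all genes were called by limma. At an unadjusted p under 0.05 there were 0 mtDNA-coded and 8 nuclear members. No difference between the sexes in the response of these genes to weaning was therefore shown, and the SEs of the interaction for the mtDNA-coded members reached 0.958 (mt-Co1).

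**Figure D3:**
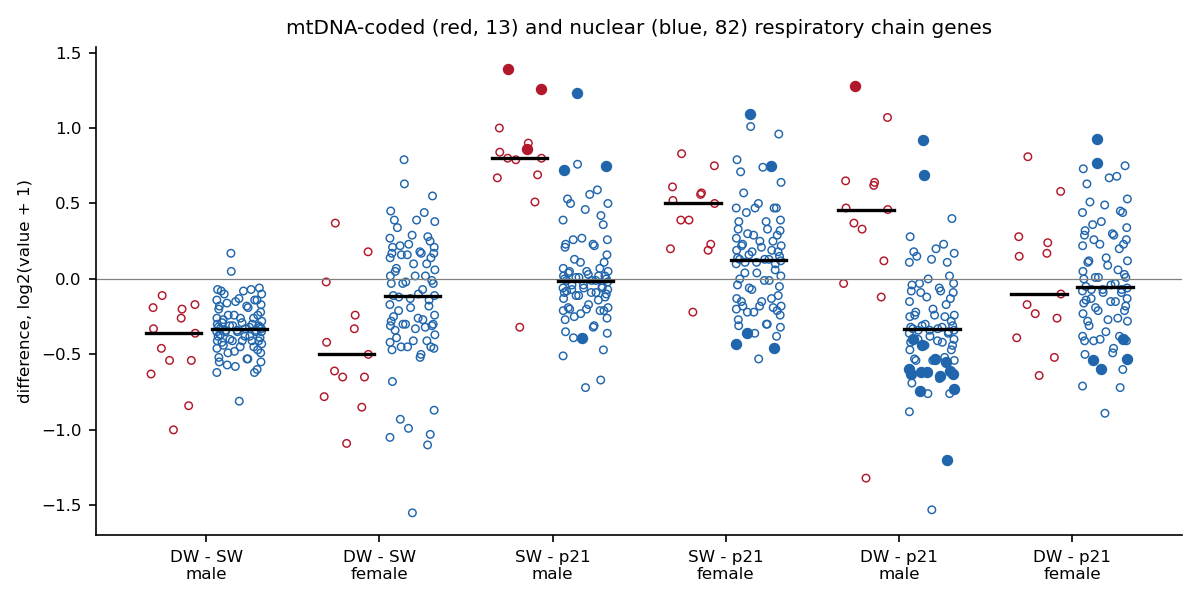
Difference in log2(value + 1) of each member in 6 comparisons, for the 13 mtDNA-coded (red) and 82 nuclear members (blue); filled points passed limma's test, open points did not, and black bars are medians. In DW minus SW males both medians lie below 0 (-0.36 and -0.33) with no filled point, and in SW minus p21 males the mtDNA median is 0.80 and the nuclear one -0.02.

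From p21 to day 28 with standard weaning, the 2 genomes diverged most in males. The mtDNA-coded median was 0.80, with 12 of 13 above 0, and the nuclear median -0.02, with 37 of 82 above 0. limma called 3 mtDNA-coded members, all higher (6.90% of all genes were called higher, 11.9% in either direction). These were mt-Atp8, mt-Nd4l and mt-Atp6. Of the nuclear members it called 4: Ndufa1, Cox4i2 and Cox6a1 rose and Atp5pb fell (4.97% of all genes were called lower).

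mt-Atp8 had scaled values of 13.1, 7.68, 5.58 and 17.1 in p21 males and 24.5, 19.0, 39.1 and 32.3 in SW males, without overlap (1.39, SE 0.42, limma adjusted p = 0.0346). mt-Nd4l had 272.8, 219.2, 302.4 and 379.1 at p21 and 567.7, 531.4, 948.5 and 786.3 after SW, also without overlap (1.26, SE 0.367, limma adjusted p = 0.0287). mt-Atp6 had 545.2, 407.9, 879.7 and 740.5 against 943.0, 1570, 1339 and 791.2 and overlapped (0.86, SE 0.265, limma adjusted p = 0.0379). mt-Atp6 and mt-Nd4l are among the genes with over 97% of windows elsewhere, and mt-Atp8 shares its end with mt-Atp6.

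The abundant mt-Co1, mt-Nd2, mt-Nd5, mt-Cytb and mt-Nd1, with fewer windows elsewhere, separated as well, though limma did not call them. The share of windows elsewhere was 30.8% for mt-Co1, 3.19% for mt-Nd2 and 0 for mt-Nd5, mt-Cytb and mt-Nd1. mt-Co1 had 48908, 38721, 61281 and 65773 in p21 males and 83824, 96383, 100910 and 85490 in SW males (0.80, SE 0.677, limma adjusted p = 0.482). mt-Nd2 (1.00), mt-Nd5 (0.90), mt-Cytb (0.84) and mt-Nd1 (0.51) did not overlap either. Of the 13 mtDNA-coded members 7 lay wholly above p21 in SW males, as did 1365 of all 16005 genes. limma's variance trend gave the abundant genes a large spread: the SD between animals of a group was 0.286 for mt-Co1, and the SD used in the test was 0.958. Without the trend, limma called 7 mtDNA-coded members, against 1976 of all 16005 genes, and mt-Co1 had an adjusted p of 0.0102. edgeR called 6 (mt-Nd2, mt-Co1, mt-Atp8, mt-Atp6, mt-Cytb and mt-Nd4l) and DESeq2 8, which adds mt-Nd4 and mt-Nd5. The shares of all genes called by edgeR and DESeq2 are not given. mt-Nd3 was the 1 gene below 0 (-0.32), with values of 33.8 to 230.8 in SW males.

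The mtDNA calls of limma with the variance trend rested on few libraries. Those of edgeR, DESeq2 and limma without the trend were not recomputed with animals left out. limma called 0 mtDNA-coded members without p21 male 38 or without SW male 85, and 1 without p21 male 37 or SW male 124. It called 0 without p21 males 37 and 38 together, where the mtDNA median was 0.523. The share of all genes called in these fits is not given. Muscle RNA moved with this comparison: 14 of 18 muscle markers were called higher in SW males (median 4.52). With the muscle score as a covariate limma called 0 mtDNA-coded members, and their median was 0.78. Adipocyte markers also moved, 3 called higher and 1 lower of 10 (median 0.50). Their part in the result was not tested beyond that covariate.

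In females the same age comparison gave a mtDNA-coded median of 0.50, with 12 of 13 above 0, and a nuclear median of 0.12. limma, edgeR and DESeq2 called 0 mtDNA-coded members, and 0 had an unadjusted p under 0.05. limma called 5 nuclear members (11.6% of all genes were called). Ndufa1 and Cox6a1 rose (7.39% of all genes were called higher), and 3 fell, among them Uqcrc2 (-0.46) and Atp5pb (-0.36) (4.23% called lower). Without p21 female 30 or 55 or SW female 75 the nuclear count was 2, and without p21 female 36 or SW female 74 it was 3. The share of all genes called without these animals is not given. Of 10 markers of mammary epithelium, which lies in this fat pad in females, 8 were called higher in SW females (summed value 275.7 to 389.5 against 44.2 to 173.9 at p21). Muscle markers had a median of 2.84 with 1 of 18 called higher, and of 10 brown and beige fat markers 1 was called higher and 2 lower. The part of these markers was not tested beyond the muscle covariate, with which 5 nuclear members were called. As an interaction of sex and age (SW against p21), limma, edgeR and DESeq2 called 0 members, with 1.03% of all genes called by limma. At an unadjusted p under 0.05 there were 1 mtDNA-coded and 1 nuclear member.

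From p21 to day 28 with delayed weaning, males showed the most called nuclear members. Of 82, limma called 16: Ndufa1 and Cox4i2 rose (8.86% of all genes were called higher) and 14 fell (6.10% called lower). All 17 nuclear members of complex V were below 0 (median -0.38), and 2 of them were called. In complex I, 7 of 37 fell and 1 rose. In complex III 3 of 8 fell, in complex IV 1 of 13 fell and 1 rose, and in complex II 1 of 4 fell. The share called was 19.5% of nuclear members, against 15.0% of all genes in either direction. The nuclear median was -0.34 against 0.02 for all genes, while the mtDNA-coded median was 0.46.

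The falls called with the largest size were Cox5a, Ndufab1 and Ndufb2. The calls of Cox5a and Ndufb2 were lost without p21 male 53, and that of Cox5a also without DW male 87. Cox5a, a matrix-side subunit of complex IV, had 88.3, 80.7 and 174.6 in p21 males 37, 38 and 53 (mean of all 4, 103.9 ± 47.6) and 44.6, 42.7, 49.7 and 32.3 in DW males, without overlap (-1.20, SE 0.349, limma adjusted p = 0.0249). Ndufab1, the mitochondrial acyl carrier protein and a subunit of complex I, had 81.4, 87.7, 99.5 and 84.9 against 54.1, 54.9, 52.0 and 48.3 (-0.74, SE 0.162, limma adjusted p = 0.00469). Each DW male was below each p21 male. Ndufb2 went from a mean of 11.9 ± 4.71 to 6.41 ± 0.587 (SD, n = 4; -0.73, SE 0.197, limma adjusted p = 0.0159). Among the mtDNA-coded genes limma called mt-Atp8, with 19.2, 21.4, 31.2 and 33.5 in DW males (1.28, SE 0.42, limma adjusted p = 0.0441). mt-Nd3 went the other way without overlap, at 40.7, 34.7, 48.2 and 27.4 in DW males against 68.3, 84.5, 219.9 and 60.8 at p21 (-1.32, SE 0.469, limma adjusted p = 0.0605), and was called by edgeR and DESeq2.

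The number of nuclear calls in this comparison changed with single libraries. It was 29 without p21 male 37, 4 without p21 male 53, and 9, 10 and 6 without DW males 79, 86 and 87. Male 53 had the fewest recovered reads (57600711) and the highest nuclear share (1.99%) of all libraries. In it 14054 genes were detected, against 15497 to 16066 in the other libraries. With p21 males 37 and 38 both left out, the number of nuclear calls was 35, of which 34 were lower, with a nuclear median of -0.624. The share of all genes called without these animals is not given beside these counts. The call of mt-Atp8 was lost without p21 male 38 or 53, without DW male 79, 80, 86 or 87, and under edgeR (adjusted p = 0.0572). Muscle markers moved here too, 13 of 18 called higher (median 4.20). With the muscle score as a covariate 4 nuclear members and 0 mtDNA-coded ones were called, and the nuclear median was -0.279. Ucp1 fell from 445.7 ± 199.2 to 103.3 ± 29.5 (SD, n = 4; -2.02, SE 0.567, limma adjusted p = 0.0205), and 2 of the 10 brown and beige fat markers were called, both lower. The r with exon length was -0.132 to 0.240 in p21 males and 0.0571 to 0.321 in DW males. The parts of these markers and of length in the result were not tested further.

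In DW females against p21 females, limma called 6 nuclear members (12.1% of all genes), and limma, edgeR and DESeq2 called 0 mtDNA-coded ones, of which 0 had an unadjusted p under 0.05. Ndufb1 and Cox6a1 rose (5.95% of all genes were called higher), and Atp5a1, Atp5pb, Sdha and Uqcrc2 fell (6.16% called lower). Atp5a1 codes the alpha subunit of the ATP synthase head. Its values were 1406, 1498, 1400 and 1394 in p21 females and 1069, 983.7, 943.6 and 787.0 in DW females, without overlap (-0.60, SE 0.123, limma adjusted p = 0.00299). Sdha, the flavoprotein of complex II, had 1283, 1326, 1284 and 1242 against 999.5, 1013, 808.5 and 751.2 (-0.53, SE 0.136, limma adjusted p = 0.0131). Ndufb1, an accessory subunit of complex I, had 41.4, 39.1, 39.7 and 32.4 in p21 females and 42.7, 36.2, 141.7 and 128.7 in DW females (0.93, SE 0.299, limma adjusted p = 0.0459), so its rise lay in DW females 82 and 83. Without those animals it was at 0.05 (limma adjusted p = 0.914). Without DW females 82 and 83 Sdha was at -0.35 and not called (limma adjusted p = 0.161), and Atp5a1 at -0.47 and called (0.0329). The nuclear count was 13 without DW female 76 and 11 without DW female 77, and the share of all genes called in these fits is not given. The mtDNA-coded median was -0.10, and 0.21 without DW females 82 and 83.

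A few nuclear subunits were called repeatedly. These comparisons share the p21 animals within a sex, so their agreement within a sex is not independent. Ndufa1 is a small X-linked membrane subunit of complex I. Its values were 59.8, 81.8, 64.8 and 105.4 in p21 males, 175.6, 138.7, 206.1 and 207.8 in SW males and 155.0, 165.9, 130.2 and 129.9 in DW males. Both day 28 groups of males lay wholly above p21 (SW 1.23, SE 0.231, limma adjusted p = 0.0017; DW 0.92, SE 0.231, limma adjusted p = 0.0112). The p21 females had 96.6, 84.4, 104.7 and 82.2, the SW females 160.4, 177.7, 216.3 and 240.9 and the DW females 232.6, 178.3, 134.1 and 82.2. SW females lay wholly above p21 (1.09, SE 0.231, limma adjusted p = 0.00273), while DW female 83 was at the p21 level (0.67, SE 0.231, limma adjusted p = 0.0603). Without DW females 82 and 83 the DW difference was 1.15 (limma adjusted p = 0.002). The DW call in males was lost without p21 males 37 and 38 together, where the adjusted p was 0.0534.

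Cox6a1, the general isoform of a regulatory complex IV subunit, had 52.4, 76.6, 80.1 and 89.3 in p21 males, 120.4, 122.1, 99.5 and 146.6 in SW males and 92.7, 108.7, 80.2 and 68.1 in DW males. SW males lay wholly above p21 males (0.72, SE 0.167, limma adjusted p = 0.00765), and DW males overlapped p21 males (0.23, SE 0.167, limma adjusted p = 0.369). In females it had 79.7, 72.7, 71.6 and 60.6 at p21, 95.9, 115.2, 121.8 and 153.6 after SW and 117.7, 120.7, 141.2 and 109.9 after DW. Both day 28 groups lay wholly above p21 (SW 0.75, limma adjusted p = 0.00406; DW 0.77, limma adjusted p = 0.00421; SE 0.167 for both). The interaction of sex and weaning for Cox6a1 was 0.51 (SE 0.236, limma adjusted p = 0.802), so the difference between the sexes was not shown. The SW call in males was lost without p21 males 37 and 38 together (0.51, limma adjusted p = 0.068).

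Atp5pb, the b subunit in the peripheral stalk of ATP synthase, was called lower in all 4 age comparisons. Its values were 434.1, 457.7, 452.5 and 454.1 in p21 males, 407.0, 336.4, 370.1 and 270.4 in SW males and 273.8, 295.7, 306.0 and 282.2 in DW males. In females they were 519.7, 400.9, 406.2 and 388.5 at p21, 357.0, 335.1, 323.8 and 316.3 after SW and 300.9, 269.6, 318.9 and 280.7 after DW. In both sexes each day 28 animal lay below each p21 animal. The differences were -0.39 (SW males, limma adjusted p = 0.0224), -0.36 (SW females, 0.036), -0.63 (DW males, 0.000825) and -0.54 (DW females, 0.00257), each with an SE of 0.109. The SW calls were lost without SW male 84 or 124, or p21 female 30 or 55, or SW female 74, 75 or 81; the highest adjusted p was 0.084 in males and 0.147 in females. They were lost with the muscle score as a covariate too (0.0968 and 0.0645), and the SW male call without p21 males 37 and 38 (0.057). When the fit held the compared groups alone, both SW calls and the DW female call (0.059) were lost, and the DW male call was not. Of its 100-base windows 16.8% also lie in another gene, mostly the neighbour Wdr77.

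Uqcrc2, a core protein of complex III, was called lower in 3 of the 4: SW females (-0.46), DW males (-0.40) and DW females (-0.40, limma adjusted p = 0.0478). In SW males it stood at -0.19 (limma adjusted p = 0.364). In DW females it was lost under edgeR (adjusted p = 0.101) and DESeq2 (0.0572) and without any one of 6 of the 8 animals. In DW males it was also lost without any one of 6 animals (all but p21 males 37 and 38), and in SW females without p21 female 30, 36 or 55 or SW female 75. Of its windows 22.7% lie in another gene.

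**Figure D4:**
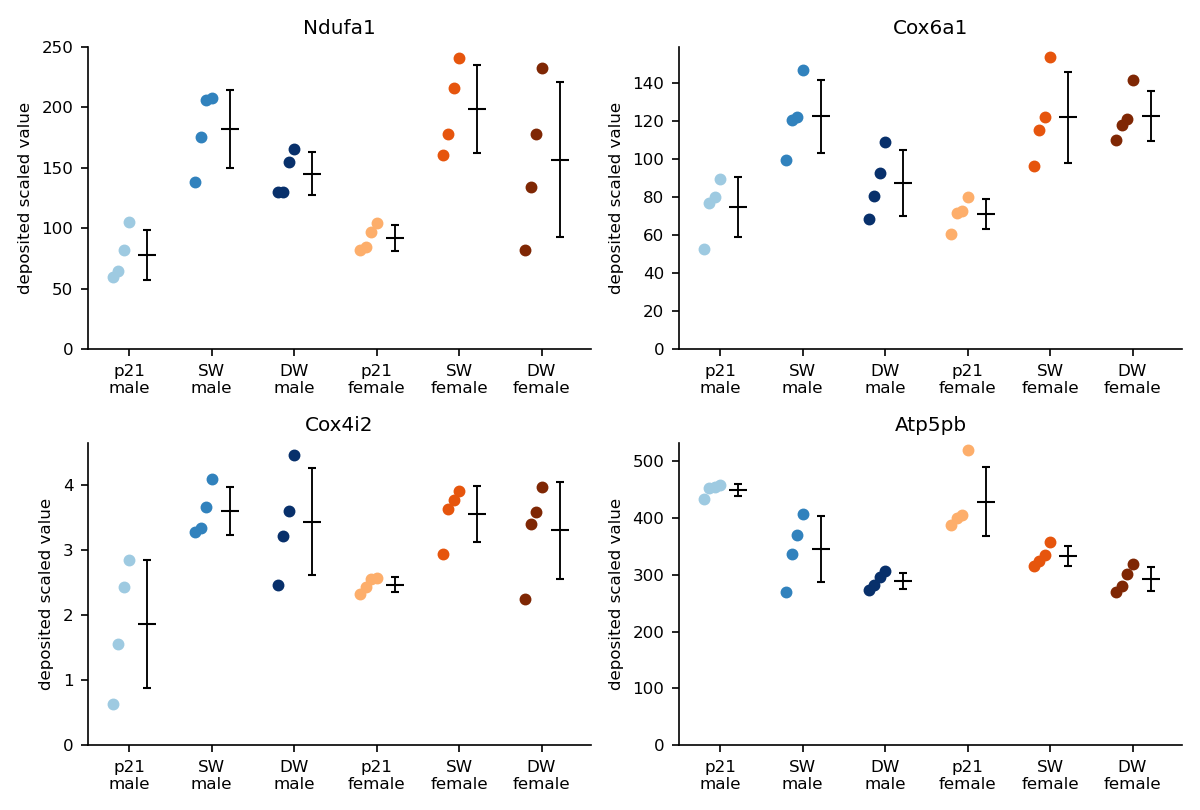
Deposited scaled values of Ndufa1, Cox6a1, Cox4i2 and Atp5pb in each of 24 animals by group; points are animals, bars the mean and SD of 4. Atp5pb lies lower in every day 28 animal than in the p21 animals of its sex, and Ndufa1 and Cox6a1 lie higher in SW animals of both sexes.

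Isoform families show which version of a subunit the tissue held. Per kb of exon, Cox4i1, the general isoform of complex IV subunit 4, stood at 258.8 and Cox4i2, its hypoxia-linked isoform, at 3.86. Cox4i2 had scaled values of 1.55, 2.43, 0.632 and 2.85 in p21 males, 3.35, 3.28, 4.09 and 3.67 in SW males and 4.46, 3.61, 3.22 and 2.47 in DW males. SW males did not overlap p21 males (0.75, SE 0.195, limma adjusted p = 0.0152), and DW males did (0.69, SE 0.195, limma adjusted p = 0.0217). The DW call was lost without p21 male 53 or DW male 79 or 80, and both were lost with the muscle score as a covariate (adjusted p of 0.0689 and 0.0705). In females it was 0.39 after SW and 0.29 after DW (limma adjusted p = 0.224 and 0.345). Cox6b1 stood at 619.6 per kb, and Cox6b2, its testis isoform, at 1.59. Cox7b stood at 165.8, Cox7a2 at 139.9 and Cox8a at 311.8 per kb.

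The muscle and brown fat isoforms left out of the members were measured beside them. Cox6a2, the muscle isoform, had scaled values of 0.142 to 1.66 in p21 males, 0.616 to 11.9 in SW males and 0.495 to 10.8 in DW males. Cox7a1, of muscle and brown fat, had 57.7 to 152.0, 77.4 to 167.4 and 70.6 to 140.5 in the same groups. Cox8b, also of muscle and brown fat, had 31.5 to 120.2, 68.6 to 101.0 and 42.2 to 84.1. In females Cox6a2 had 0.616, 2.39, 0.251 and 0.202 at p21, 1.91, 5.49, 1.44 and 13.5 after SW and 1.23, 0.348, 0.119 and 0.651 after DW. DW and SW females did not overlap (-1.73, SE 0.616, limma adjusted p = 0.171). In p21, SW and DW females Cox7a1 had 89.0 to 148.8, 84.8 to 155.7 and 46.8 to 196.6, and Cox8b 36.9 to 65.2, 51.1 to 76.7 and 34.1 to 97.4. None of the 3 was called by limma in the weaning or age comparisons; the lowest adjusted p was 0.0881 (Cox6a2, SW against p21 males).

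Of the 3 members that are not counted as subunits, limma called none. Cox5b-ps had 71.5 in p21 male 53 and 29.5 in SW male 84, against 1.51 to 11.2 in the other libraries. In DW against p21 males its difference was -1.53 (limma adjusted p = 0.117), and edgeR (0.037) and DESeq2 (0.0117) called it, as did limma without p21 males 37 and 38 (-2.36, adjusted p = 0.0365). Ndufa4l2 had means of 14.5 ± 3.74, 20.0 ± 2.11 and 19.2 ± 2.37 in p21, SW and DW males (SD, n = 4). Cox7a2l had means of 183.0 ± 24.5, 218.9 ± 25.5 and 199.2 ± 14.2. The nuclear members with the highest mean value of complexes I, III, IV and V were Ndufb3, Uqcrb, Cox6b1 and Atp5b. Of these limma called Uqcrb, a small subunit of complex III, in DW males. It had 481.2, 538.1, 686.7 and 657.2 in p21 males and 414.0, 388.5, 416.6 and 399.2 in DW males, without overlap (-0.53, SE 0.17, limma adjusted p = 0.0395). The call was lost without any one of 6 of the 8 animals (all but p21 males 37 and 38) and with the muscle score as a covariate (0.128). The differences of Ndufb3, Cox6b1 and Atp5b between p21 and day 28 were -0.40 to 0.49, and limma called none of them in the 4 age comparisons.

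Within the 4 DW females the members divided by animal number. Uqcr11, a small subunit of complex III (chosen, like the others of this paragraph, after its values were seen), had 270.7 and 201.2 in animals 76 and 77 and 46.0 and 12.7 in animals 82 and 83. Ndufb1 had 42.7 and 36.2 against 141.7 and 128.7, and mt-Nd1 had 35590 and 26934 against 12374 and 11397. Of the mtDNA-coded members 10 of 13 were lower in 82 and 83, with a median difference of -0.88. Of the nuclear members 37 were lower and 45 higher. Those below the median GC content of 51.4% differed by a median of 0.32, and those at or above it by -0.34. Across the 82 nuclear members the difference had a Pearson's r of -0.421 with GC content, and across 13062 genes -0.602 (the points share 4 libraries, so no p is given). The mtDNA-coded genes, most of them lower in 82 and 83, have 31.9% to 41.1% GC. The part of GC content in the comparisons of either sex was not tested. Among males, p21 male 37 had the lowest r with GC content over all genes (-0.483).

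**Figure D5:**
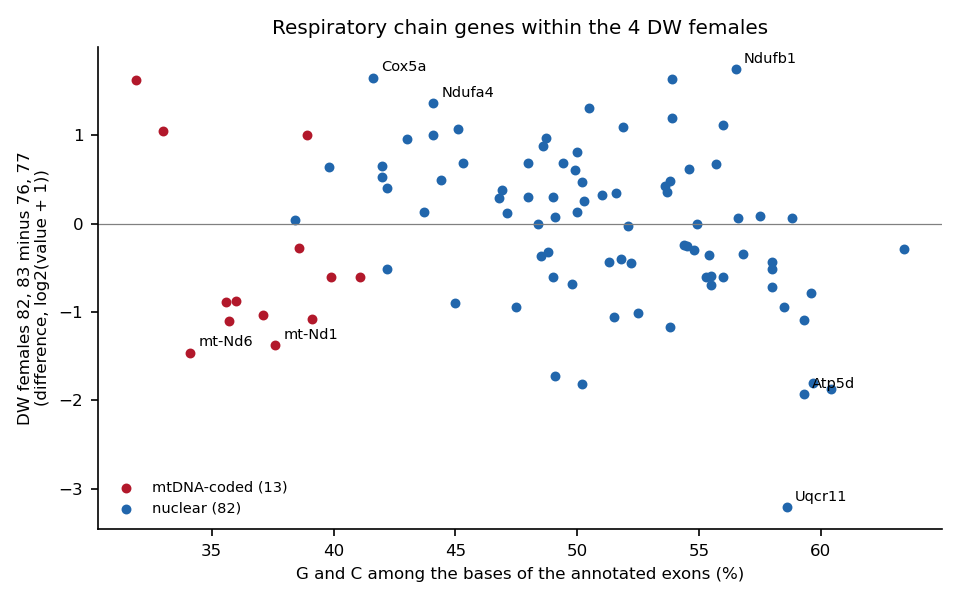
Difference in log2(value + 1) between DW females 82 and 83 and DW females 76 and 77 for each member, against its GC content (%). GC content is that of 1 annotated transcript, as a rule the longest. Red points are the 13 mtDNA-coded and blue points the 82 nuclear members. Uqcr11 lies lowest, and 10 of 13 mtDNA-coded genes lie below 0.

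Other genes of the mitochondrion were called lower more often than higher in the age comparisons. Of all genes, 4.97% (SW males), 4.23% (SW females), 6.10% (DW males) and 6.16% (DW females) were called lower. Of 13 genes of the citric acid cycle, limma called 1 (SW males), 6 (SW females), 4 (DW males) and 9 (DW females) against p21, all lower, with medians of -0.17, -0.45, -0.27 and -0.51. Idh3a, a catalytic subunit of isocitrate dehydrogenase, fell in SW females from 578.8 ± 35.5 to 343.8 ± 48.9 (SD, n = 4; -0.76, SE 0.151, limma adjusted p = 0.00159). Of 22 genes of the mitochondrial membranes and protein import, 3, 5, 9 and 9 were called, all lower. The chaperone Hspd1 fell in all 4 comparisons, by 0.71, 0.90, 0.62 and 0.86. Of 45 measured assembly factors, 2, 8, 10 and 9 were called lower (4.44% in SW males, near the share of all genes, and 17.8%, 22.2% and 20% in the others), and 1, Pet100, was called higher in DW females.

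The 29 regulators of mitochondrial DNA and of its nuclear partners were called lower or not at all: 4, 7, 6 and 6 (13.8%, 24.1%, 20.7% and 20.7%, against 4.97%, 4.23%, 6.10% and 6.16% of all genes). Supv3l1, a helicase of mitochondrial RNA decay, fell in all 4 (by 0.32, 0.44, 0.35 and 0.50). Ppargc1a, the coactivator of mitochondrial biogenesis, fell in SW (-0.70, limma adjusted p = 0.0207) and DW females (-0.88, limma adjusted p = 0.00548) and stood at -0.08 and 0.15 in the males. Tfam, the packaging and transcription factor of mtDNA, fell in DW males (-0.44, limma adjusted p = 0.025) and missed the threshold in SW males (-0.39, limma adjusted p = 0.0503). In the weaning comparisons limma called 0 genes of these 4 lists in either sex. Macrophage markers rose in all 4 age comparisons (5, 6, 7 and 6 of 7 called), and erythroid markers fell (5, 3, 5 and 7 of 7). Their part in these results was not tested.

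Between the sexes no member was called by limma: 0 of 95 at p21 (0.356% of all genes called), after SW (3.54%) and after DW (2.46%). edgeR and DESeq2 also called 0 at p21 and after SW. At an unadjusted p under 0.05 there were 2 members at p21, 0 after SW and 29 after DW (30.5% of members against 19.7% of all genes). After DW 61 of 82 nuclear members were higher in females (median 0.19) and 9 of 13 mtDNA-coded ones lower (median -0.30). There edgeR called 2 nuclear members, Ndufb1 and Atp5e (Atp5e named after its values were seen), and DESeq2 called 14. limma called 14 without DW female 76, 15 without DW female 77, and 0 without DW females 82 and 83 together. For edgeR, DESeq2 and these fits with animals left out, the share of all genes called is not given.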

How the data were processed

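The authors deposited 1 table of signal per gene and sample, reads divided by a factor of each library; per the submitters' processing notes fastp, HISAT2, featureCounts and DESeq2 1.38.3 were used with mm10. The settings of these steps, strand included, are not given in the sources used here. In each library 100% of deposited values were whole multiples of 1 read (within 0.01), so whole read counts were recovered. The file has 16208 rows, of which 90 repeats were left out (3 of them of 2 members). Whether reads are separate molecules is unknown.

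limma 3.58.1 (R 4.3.3) was fitted to log2(value + 1) with 1 coefficient per group (18 residual degrees of freedom, variance trend), after filterByExpr on recovered reads (minimum count 10), as the planned choice for normalized values; the fit was tested on simulated data. edgeR 4.0.16 and DESeq2 1.42.0 on recovered reads were alternatives. Positions in the nucleus are RefSeq's (GRCm38.p6). No animal number occurs in more than 1 group, and nothing was paired. Members and lists were chosen with earlier results of these data known. Named were all mtDNA-coded members, per comparison up to 3 called nuclear members rising and 3 falling most, the highest of each complex, isoform families, non-subunits and list genes; others are marked. 1 member is not reported here by name.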

Additional observations from a re-analysis of the deposited data

Results flagged for a closer look

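Within groups of 4 animals, single animals that lay far from the other 3 were sought by Dixon's ratio (gap to the nearest animal over the whole range) in 228 sets of 4: the mtDNA and nuclear shares and means, the mtDNA-coded genes and the called nuclear members. It marked 7, where chance gives about 1 in 20, or 11.4. The mtDNA share of p21 female 56 was 16.6%, against 20.8 to 21.2% in the other p21 females, and its mt-Cytb stood at 15.04 on the log2(value + 1) scale against 15.43 to 15.50. mt-Nd6 stood at 12.24 in SW female 74 against 10.53 to 10.81. mt-Nd2 stood at 14.50 in SW male 84 against 14.60 to 14.62. Among nuclear members, Atp5pb stood at 9.02 in p21 female 30 against 8.61 to 8.67, and Atp5a1 at 10.55 in p21 female 36 against 10.45 to 10.46. Ndufab1 stood at 5.96 in SW female 81 against 6.15 to 6.18. None of these was explained or tested further.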

How the results depend on the processing

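Counts of called members were recomputed in 404 combinations of 22 counts and settings, of which 353 equalled the value reported or lay within 1.5 times of it. A count of 0 under both was taken as equal, and most of the 22 reported counts were 0. The tally therefore says little about the counts above 0. Under edgeR the mtDNA-coded count was 6 (SW against p21 males) and 2 (DW against p21 males), and the nuclear count 2 (DW females against DW males). Under DESeq2 the mtDNA-coded counts of the same age comparisons were 8 and 3, and nuclear counts were 1 (weaning, females), 8 (SW against p21 females), 26 and 11 (DW against p21, males and females) and 14 (DW females against DW males). A pseudocount of 0.1 gave 2 mtDNA-coded members for DW against p21 males. When the fit held the compared groups alone, mtDNA-coded counts were 1 (SW against p21 females), 2 (DW against p21 males) and 1 (SW females against SW males), and nuclear counts 2 and 15 (SW against p21, males and females) and 1 (DW against p21 females). With the muscle score as covariate the mtDNA-coded counts of both male age comparisons were 0, and the nuclear ones 2 (SW) and 4 (DW).

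Chosen after seeing the data, limma without a variance trend gave 7 mtDNA-coded members for SW against p21 males; leaving out p21 males 37 and 38 gave 0 and 0 mtDNA-coded members (SW and DW against p21) and 35 nuclear members (DW). Leaving out DW females 82 and 83, no filter, scaling without mtDNA reads and the run of animal numbers moved no count by over 1.5 times. Leaving out 1 animal at a time, mtDNA-coded counts ranged from 0 to 4 (SW against p21 males), 0 to 1 (DW against p21 males) and 0 to 1 (weaning, females). Nuclear counts ranged from 3 to 5 and 2 to 6 (SW against p21, males and females), 4 to 29 and 4 to 13 (DW against p21, males and females), 0 to 12 (weaning, females) and 0 to 15 (DW females against DW males); all other counts stayed at 0. The share of all genes called under each altered setting is not given, here or above, except without the trend. The cause of these moves was not tested. No called member changed sign under any setting. No paired analysis was possible because the groups share no animal numbers. With 4 animals per group, and depths that differ, a difference that missed the threshold is not shown to be absent.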
